A study of Mus musculus with 6 samples.

Results

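The TRIM (tripartite motif) genes are a large family of ubiquitin ligases, and their transcripts were compared between wild type (WT) and Hemgn-/- donor cells recovered from irradiated mice shortly after bone marrow transplantation (BMT). Members were the protein-coding genes of the mouse GENCODE M21 annotation (GRCm38) whose symbol is Trim followed by a number. The annotation holds 68 such genes, and 57 of them had a row among the 24965 genes of the FPKM table (fragments scaled by transcript length and by the total of the library). The other 11 were not analysed here. With FPKM above 1 in at least 1 library, 38 members passed the filter for testing, of 13739 genes tested in all. Bone marrow from Hemgn-/- mice, in which zinc finger nucleases had disrupted Hemgn in the whole body on the C57BL/6 background, or from WT littermates, was given to CD45.1 recipients irradiated with a split dose of 9 Gy. All donors were CD45.2 mice of both sexes at 8 to 10 weeks of age, and 20000000 cells were injected. Donor hematopoietic stem and progenitor cells (HSPCs) were sorted at 6 h, with 3 libraries for each genotype. The series design names lineage-negative Sca-1 and c-Kit positive cells, tail vein injection and Smart-Seq2 cDNA, while the labels of the samples give donor cells gated only on Sca-1 and the absence of lineage markers, retro-orbital injection and TruSeq kits. Both genotypes therefore shared the irradiated host and the transplantation, and no library came from cells before transplantation.

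A TRIM protein carries, from its start, a RING finger that recruits an E2 enzyme, 1 or more B-box zinc fingers and a coiled coil that makes it a dimer, and the domain at its end chooses the target. In many members that last domain is a PRY-SPRY domain, and a group of these genes is induced by interferons and restricts viruses or tunes the sensing of foreign RNA and DNA. Others work in quite different settings, such as gene silencing on chromatin, late red cell maturation, neurons or muscle. In mice the interferon-inducible Trim5, Trim12, Trim30 and Trim34 genes form a run of tandem copies on chromosome 7, next to the olfactory receptor and beta-globin genes. Interferons signal through STAT proteins and interferon regulatory factors, which bind the interferon-stimulated response element (ISRE) and the gamma-activated site (GAS).

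The interferon-inducible TRIM genes, above all the tandem copies on chromosome 7, had more transcript in Hemgn-/- HSPCs, while no member outside the interferon-inducible list passed the test in either direction. The list held 16 genes named from general knowledge, of which 15 had values and 14 were tested. With limma on log2(FPKM + 1) and Benjamini-Hochberg adjustment over all genes tested, 8 of the 14 rose, 1 fell and 5 did not pass an adjusted p of 0.05. The 8 were Trim5, Trim12a, Trim26, Trim30a, Trim30b, Trim30c, Trim30d and Trim34a, and Trim34b was the gene that fell. Among all genes tested 4.37% rose and 2.09% fell by the same call. None of the 24 other members tested rose or fell at this threshold, neither with limma nor with voom on recovered fragments. With limma 5 of them had an unadjusted p under 0.05, and the share of all genes with such a p was not counted. The adjusted p of the 5 ran from 0.0943 (Trim8) to 0.200 (Trim27). The median log2 fold change (Hemgn-/- minus WT) was 0.55 over the 14 interferon-inducible members, -0.04 over the 24 others and 0.09 over all genes. The median of the 14 stayed between 0.45 and 0.64 under each scaling and each left-out library, with 12 of 14 positive, while that of the others lay on both sides of 0, from -0.13 to 0.04. Of all genes tested, 8653 of 13739 were positive in the main fit. The list and its members were named with earlier results of these data known, so no test was run on the list itself. These are bulk libraries, in which fewer cells of a type and less RNA per cell cannot be told apart.

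**Figure D1:**
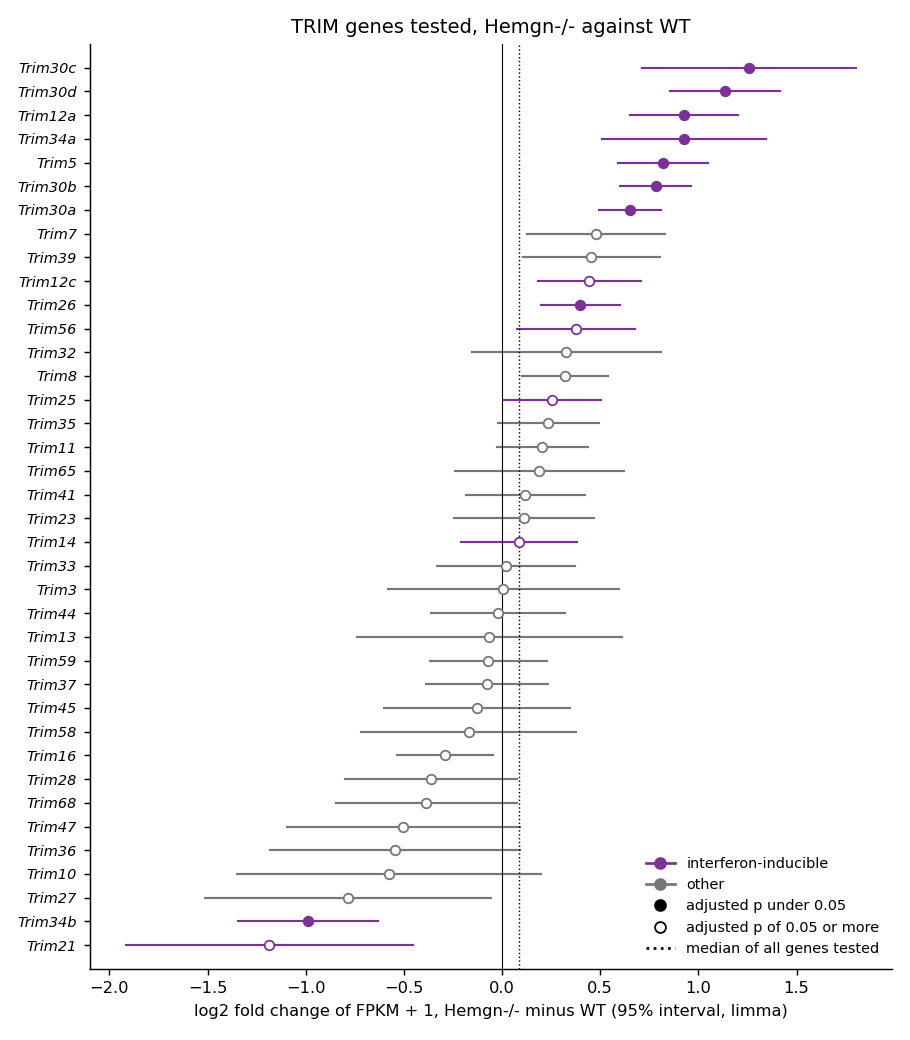
Log2 fold change of FPKM + 1 (Hemgn-/- minus WT, x axis) of each of the 38 TRIM genes tested, with its 95% interval from limma, interferon-inducible members in purple and other members in grey. Filled points have an adjusted p under 0.05, and all 9 of them are interferon-inducible members, 8 above and 1 below 0. The dotted line is the median of all genes tested, 0.09.

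At the thresholds of the study (unadjusted p under 0.05 and 1.5-fold), 7 of the 38 members were higher, against 4.1% of all genes, and 3 were lower, against 2.74%. The 7 were the higher genes above other than Trim26, and the 3 lower genes were Trim21, Trim27 and Trim34b. Counted by library, all Hemgn-/- values lay above all WT values in 14 of the 38 members, against 19.2% of all genes, and below them in 6 members, against 8.18%. Of the 14 members, 11 were interferon-inducible. The other 3, named after their values were seen, were Trim7, Trim8 and Trim39.

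The run of tandem copies spans 289.1 kb at chr7:104218793-104507849 (GRCm38), from Trim6 to Trim30d, and holds 10 members. Trim6, at 0.65, 0.33 and 0.94 FPKM in WT and 0.77, 0.96 and 0.43 FPKM in Hemgn-/- HSPCs, lay below the filter. Of the 9 tested, 7 rose, 1 fell and 1, Trim12c, did not pass the test, with a median log2 fold change of 0.82. The 5 interferon-inducible members tested elsewhere in the genome had a median of 0.25, and Trim26 alone among them passed the test. Inside the same span 2 other genes were tested, and neither was called at an adjusted p under 0.05. One of them, the predicted gene Gm15133, was at 4.16, 4.58 and 1.41 FPKM in WT and at 5.31, 7.11 and 5.04 FPKM in Hemgn-/- HSPCs. Its groups did not overlap, and its log2 fold change of 0.72 (adjusted p = 0.209) passed the thresholds of the study. Within 1 Mb on either side 6 other genes were tested. The beta-globin gene Hbb-bs fell by 3.90 and its neighbour Hbb-bt fell by 2.09 on the log2 scale, the predicted gene Gm5900 rose by 2.04, and the remaining 3 were not called. Gm5900 was thus the only other gene tested in or around the block that rose at an adjusted p under 0.05.

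**Figure D2:**
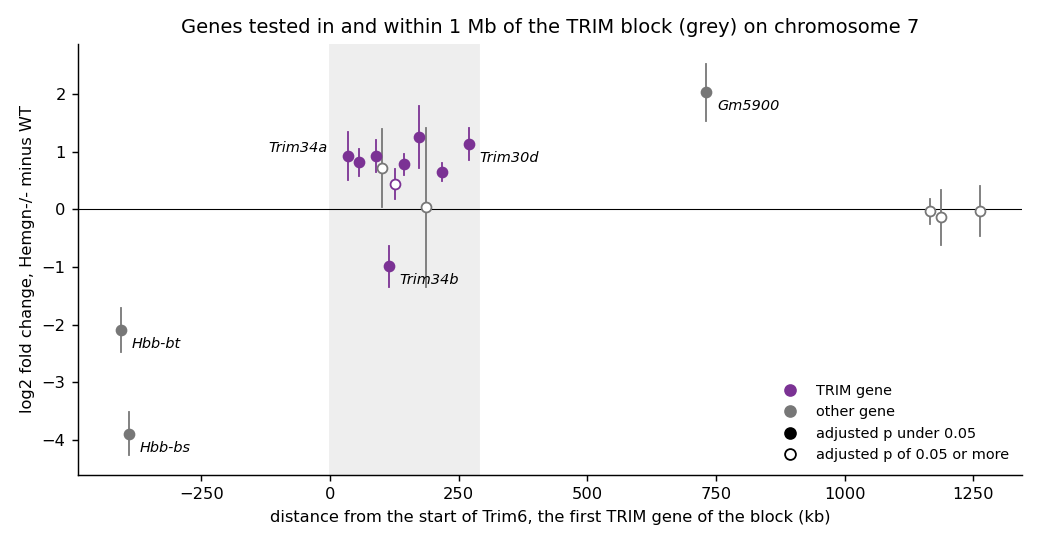
Log2 fold change (Hemgn-/- minus WT, y axis, with 95% interval) of each gene tested in the TRIM block on chromosome 7 (grey band, 289.1 kb) and within 1 Mb of it, against the distance of the gene's centre from the start of Trim6 in kb (x axis). TRIM genes are purple and other genes grey, and filled points have an adjusted p under 0.05. Trim34b is the TRIM gene below 0, and Hbb-bs and Hbb-bt lie farthest down.

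The start sites of these copies were read from the RefSeq promoter table (GRCm38.p6, 250 bases before to 50 bases after each start) and searched on both strands for the ISRE core (GAAA, any 2 bases, GAAA) and for the GAS (TTC, any 3 bases, GAA). Of the 14 interferon-inducible members tested, 13 had a promoter in the table, and 8 of these (61.5%) held the ISRE core, as did 1079 of all 27025 genes of the table (3.99%). None of the 16 matched promoters of the other members tested held it, and Trim2, below the filter, held it at 1 of its starts. The GAS letters were in 1 of the 13 (Trim30c), in 1 of the 16 (Trim45) and in 9.55% of all genes, and no tested member held both. Of the 8 genes that rose, 6 held the ISRE core. The windows below show it in capitals, on the strand of the gene, because it marks how far the copies share their starts. Where the core lies on the other strand, the capitals are its reverse complement. Trim30c, without a core, is shown aligned to Trim30a and Trim30d.
Trim5: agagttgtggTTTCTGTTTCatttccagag
Trim12a: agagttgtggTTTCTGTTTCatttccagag
Trim12c: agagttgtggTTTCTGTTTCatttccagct
Trim30a: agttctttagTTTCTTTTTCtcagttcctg
Trim30d: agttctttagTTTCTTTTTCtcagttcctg
Trim30c: agttctgtggttcctttttctcagttccac
Trim34a: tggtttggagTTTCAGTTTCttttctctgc
Trim26: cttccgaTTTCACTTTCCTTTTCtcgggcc
Trim21: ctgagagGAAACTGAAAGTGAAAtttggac

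On the minus strand these windows lie at chr7:104288136-104288165 (Trim5), chr7:104315466-104315495 (Trim12a), chr7:104353359-104353388 (Trim12c), chr7:104465210-104465239 (Trim30a), chr7:104507871-104507900 (Trim30d), chr7:104400896-104400925 (Trim30c) and chr7:102565447-102565476 (Trim21). On the plus strand they lie at chr7:104244457-104244486 (Trim34a) and chr17:36836979-36837008 (Trim26). The windows of Trim5 and Trim12a were identical over their 30 bases, and 28 of 30 were shared with Trim12c. Those of Trim30a and Trim30d were also identical, and the same core stood at the other RefSeq start of Trim30a. The core began 49 bases before the start in Trim5, 29 before it in Trim12c, 36 before it in Trim30a and 41 before it in Trim30d, and 10 bases after it in Trim12a and in Trim34a. In Trim26 a run of overlapping cores began 160 bases before the start, and in Trim21 a run began 13 bases after it. Trim34b, the copy that fell, held no core in its window, and neither did Trim30b, whose RefSeq window lies inside the GENCODE gene rather than at its start. Trim12c and Trim21 held the core and did not pass the test. A match of letters is a description of the sequence and shows no binding.

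The Trim30 genes are mouse members near Trim5, and Trim30a is known to restrain Toll-like receptor signalling. Trim30a, the most abundant TRIM gene in these libraries, measured 84.0, 92.2 and 83.3 FPKM in WT against 141, 134 and 134 FPKM in Hemgn-/- HSPCs. All 3 Hemgn-/- libraries lay above all 3 WT libraries, and the log2 fold change was 0.65 (adjusted p = 0.00158, standard error 0.069). Trim30b rose from 22.2, 22.7 and 23.4 FPKM in WT to 41.3, 41.1 and 37.4 FPKM in Hemgn-/- HSPCs. The spread within a genotype was small against the gap, with means of 22.8 ± 0.63 and 39.9 ± 2.18 FPKM (SD, n = 3) and a log2 fold change of 0.78 (adjusted p = 0.00123, standard error 0.080). Trim30d was at 15.7, 17.97 and 12.8 FPKM in WT and at 36.8, 35.1 and 32.9 FPKM in Hemgn-/- HSPCs. Its mean was 2.26 times that of WT, with a log2 fold change of 1.14 (adjusted p = 0.00168, standard error 0.12). Trim30c, the copy with the least transcript, was at 2.95, 3.94 and 1.43 FPKM in WT and at 8.37, 7.90 and 6.80 FPKM in Hemgn-/- HSPCs. These values stand for 120, 173 and 68 fragments against 394, 355 and 337, and the log2 fold change of 1.26 (adjusted p = 0.0183, standard error 0.24) had the highest value among the 38 members. The call of Trim30c was lost when any 1 of the Hemgn-/- libraries was left out (adjusted p from 0.0555 to 0.0661). It was also lost with all genes above 0 tested and with eBayes without a trend (adjusted p up to 0.0802). Trim30a, Trim30b and Trim30d kept theirs under every alternative that fitted them singly. Summed over the 4 copies, the level went from 121 to 137 FPKM in WT to 211 to 227 FPKM in Hemgn-/- libraries, a log2 fold change of 0.78 (adjusted p = 0.000607).

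**Figure D3:**
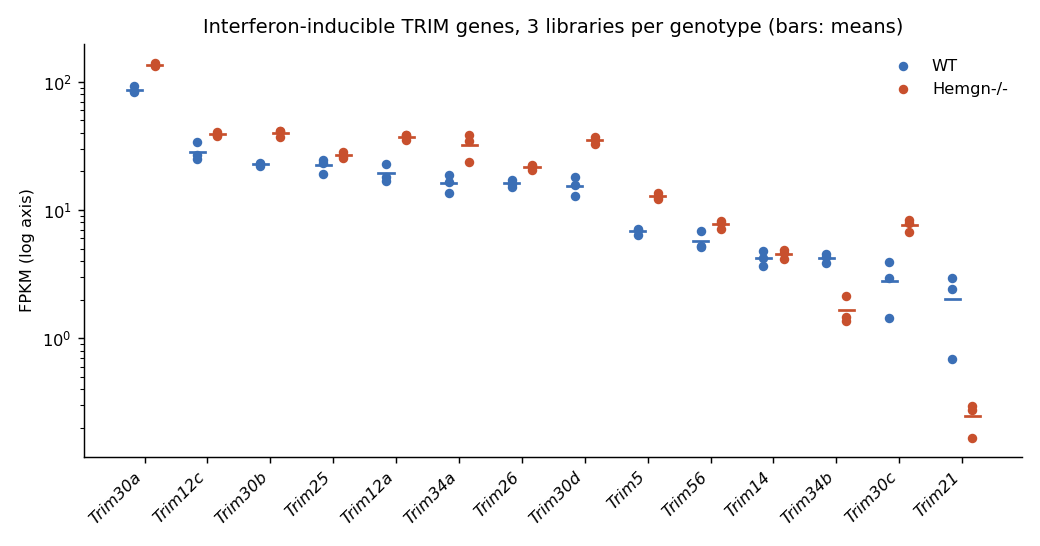
FPKM (log axis) of the 14 interferon-inducible TRIM genes tested, in order of their WT mean, with 1 point for each of 3 WT (blue) and 3 Hemgn-/- (red) libraries and a bar at each mean. Trim30a lies highest in both genotypes, the Trim30 and Trim12a points of the genotypes are apart, and Trim34b and Trim21 are the genes with lower Hemgn-/- points.

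Trim5 and the Trim12 genes are the mouse relatives of the human retroviral restriction factor TRIM5, which binds incoming capsids. Trim5 was at 6.96, 7.16 and 6.38 FPKM in WT and at 12.1, 12.6 and 13.7 FPKM in Hemgn-/- HSPCs, a log2 fold change of 0.82 (adjusted p = 0.00284, standard error 0.10). Trim12a was at 23.0, 16.7 and 18.1 FPKM in WT and at 38.4, 35.0 and 38.5 FPKM in Hemgn-/- HSPCs, and its log2 fold change was 0.93 (adjusted p = 0.00364, standard error 0.12). In both genes the genotypes did not overlap, and both calls were kept under every alternative that fitted the genes singly. Trim12c was at 33.9, 25.0 and 26.9 FPKM in WT and at 40.9, 37.6 and 38.3 FPKM in Hemgn-/- HSPCs. The groups did not overlap, yet its log2 fold change of 0.44 (95% interval 0.18 to 0.71) missed the threshold with an adjusted p of 0.0595. WT replicate 1 was the highest of the 3 in both Trim12 genes, and without it the adjusted p of Trim12c was 0.0248. With each of the other libraries left out it ran from 0.119 to 0.160. In 12 of 15 alternatives Trim12c stayed without a call.

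Trim34a and Trim34b are close relatives of Trim6 and Trim5, and they moved in opposite directions. Trim34a was at 13.5, 16.4 and 18.7 FPKM in WT and at 38.3, 23.6 and 34.5 FPKM in Hemgn-/- HSPCs. The Hemgn-/- libraries were all above WT but spread widely (32.1 ± 7.65 against 16.2 ± 2.63 FPKM, SD, n = 3), and the log2 fold change was 0.93 (adjusted p = 0.0211, standard error 0.18). This call was lost without WT replicate 1, Hemgn-/- replicate 1 or Hemgn-/- replicate 3 (adjusted p of 0.0699, 0.0589 and 0.0899). It was also lost with all genes above 0 tested (0.0864) and with eBayes without a trend (0.0743). Trim34b was at 4.52, 4.29 and 3.88 FPKM in WT and at 1.36, 2.15 and 1.46 FPKM in Hemgn-/- HSPCs. It fell by 0.99 on the log2 scale (adjusted p = 0.00852, standard error 0.16) and kept this call under every alternative that fitted it on its own. It was the only one of the 9 copies tested with a negative log2 fold change.

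Near-identical copies can exchange reads, so the sharing of sequence was measured on the annotated transcripts. Of all stretches of 150 bases in Trim34a transcripts, the length of 1 read, 8.06% also occurred in Trim34b and 16.2% in Gm47248, a gene on the opposite strand. Of those in Trim34b, 11.6% occurred in Trim34a. With stretches of 50 bases the shared part reached 59.7% in Trim34a and 56.8% in Trim34b, and it was 36.6% in Trim5 (23.5% with Trim12c), 33.7% in Trim12c and 10.5% in Trim12a. At 150 bases the other copies shared 3.24% in Trim30a, 3.23% in Trim30d, 3.29% in Trim5, 2.54% in Trim12c, 0.38% in Trim12a and 0 in Trim30b and Trim30c. Whether the counting used strand, and how it treated reads with several matches, is not given in the sources used here, and the division of reads between Trim34a and Trim34b, and among Trim5, Trim12a and Trim12c, is therefore uncertain. Trim34a took 80.7%, 84.3% and 87.1% of the fragments of both Trim34 genes in WT and 97.5%, 93.9% and 97.1% in Hemgn-/- libraries. Trim12a took 51.2%, 50.9% and 51.0% of those of both Trim12 genes in WT and 59.2%, 59.0% and 60.8% in Hemgn-/- libraries. In both cases the share was higher in all 3 Hemgn-/- libraries, and an exact permutation test of 3 libraries against 3 cannot give a two-sided p below 0.1. The 95% exact (Clopper-Pearson) interval of the lowest WT share of Trim34a ran from 78.1% to 83.1%, and it covers counting error only. With the copies summed, the Trim34 genes rose by 0.68 on the log2 scale (adjusted p = 0.0404) and the Trim12 genes by 0.67 (adjusted p = 0.0113).

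**Figure D4:**
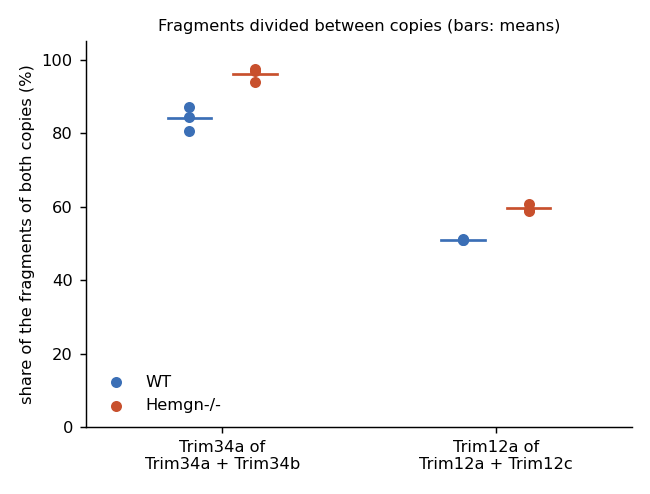
Share of the fragments of both copies (%) that were assigned to Trim34a rather than Trim34b, and to Trim12a rather than Trim12c, with 1 point for each of 3 WT (blue) and 3 Hemgn-/- (red) libraries and a bar at each mean. The Trim34a share lies at 80.7 to 87.1% in WT and 93.9 to 97.5% in Hemgn-/- libraries, and the Trim12a share at 50.9 to 51.2% and 59.0 to 60.8%.

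The interferon-inducible members outside the block act mostly in sensing. Trim26, which has been placed in the control of interferon regulatory factor 3, rose from 17.2, 16.04 and 15.2 FPKM in WT to 20.5, 22.0 and 22.3 FPKM in Hemgn-/- HSPCs. Its log2 fold change of 0.40 (adjusted p = 0.0340, standard error 0.089) was the smallest of the 8, and the call was lost in 11 of 16 alternatives, among them the omission of any 1 library (adjusted p from 0.0535 to 0.136). Trim25, which ubiquitinates the RNA sensor RIG-I, was at 23.1, 19.2 and 24.6 FPKM in WT and at 25.3, 26.2 and 28.5 FPKM in Hemgn-/- HSPCs. The Hemgn-/- values lay above all WT values by a narrow margin, and the log2 fold change of 0.25 (95% interval 0.01 to 0.50) had an adjusted p of 0.219. Trim56, a ligase linked to DNA and RNA sensing, was at 5.24, 6.86 and 5.14 FPKM in WT and at 7.90, 7.05 and 8.19 FPKM in Hemgn-/- HSPCs, with a log2 fold change of 0.38 (95% interval 0.08 to 0.68, adjusted p = 0.143). Trim14, a mitochondrial adaptor without a RING finger, was at 3.68, 4.77 and 4.24 FPKM in WT and at 4.63, 4.86 and 4.14 FPKM in Hemgn-/- HSPCs, and the groups overlapped (log2 fold change 0.09, 95% interval -0.21 to 0.38, adjusted p = 0.742). Trim14 lies 80.3 kb from Hemgn on chromosome 4, and 31.3% of its exon bases overlap Nans on the other strand, so reads of the 2 genes may not be separated.

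Trim21, the cytosolic Fc receptor that marks antibody-coated viruses for degradation, had less transcript in Hemgn-/- libraries without passing the test. It was at 2.43, 0.68 and 2.93 FPKM in WT and at 0.17, 0.28 and 0.30 FPKM in Hemgn-/- HSPCs, that is 214, 65 and 302 fragments against 17, 27 and 32. All Hemgn-/- values were below all WT values, but WT replicate 2 lay far below the other two, and the log2 fold change of -1.19 (95% interval -1.91 to -0.46) missed the threshold with an adjusted p of 0.0680. Without WT replicate 2 it was -1.56 with an adjusted p of 0.0110. The pseudocount of 1 compresses a change at this level, and the log2 fold change was -2.41 (adjusted p = 0.0474) with a pseudocount of 0.1 and -2.80 (adjusted p = 0.0332) with voom on recovered fragments. Setting all libraries to an equal FPKM total also brought Trim21 past the threshold (-1.76, adjusted p = 0.0465). In the other 12 of 16 alternatives Trim21 stayed without a call, with an adjusted p of up to 0.205 when a library was left out. The value in Hemgn-/- HSPCs was thus low in every library, and the level in WT is what differed between libraries.

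Added up, the transcripts of the interferon-inducible members came to 259, 254 and 248 FPKM in WT and to 418, 390 and 402 FPKM in Hemgn-/- libraries, 1.59 times as much. The other members came to 164, 178 and 167 FPKM in WT and to 188, 175 and 175 FPKM in Hemgn-/- libraries, 1.06 times as much, and here the genotypes overlapped. The tandem copies on chromosome 7 made up 47.3 to 49.1% of the family total in WT and 58.3 to 59.3% in Hemgn-/- libraries, and the 4 Trim30 genes alone 29.2 to 31.7% and 36.7 to 38.5%. FPKM are per length, which puts genes of unlike length on the same scale. The division of reads among copies that share sequence, and between Trim14 and Nans, stays uncertain as given above, and with it their single levels.

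**Figure D5:**
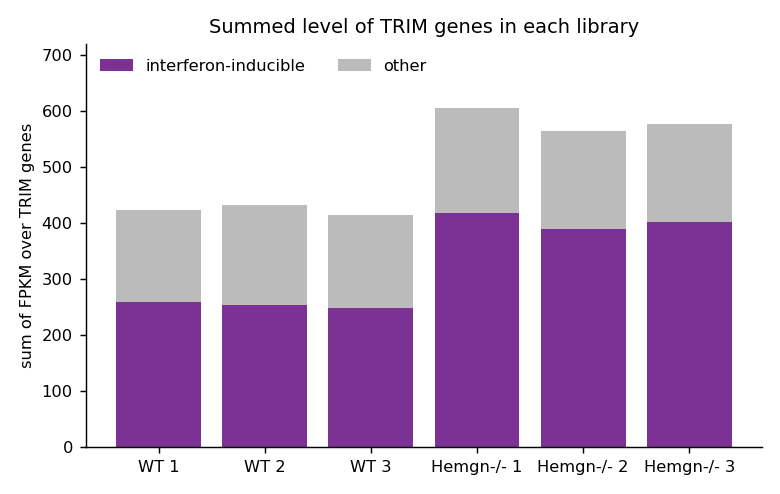
Sum of FPKM over TRIM genes in each library, with interferon-inducible members in purple and other members in grey. The purple part is 248 to 259 FPKM in the 3 WT libraries and 390 to 418 FPKM in the 3 Hemgn-/- libraries, while the grey part stays between 164 and 188 FPKM.

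The 5 most abundant of the other members did not pass the test. Trim11, which helps to clear misfolded proteins, was at 42.8, 45.8 and 37.3 FPKM in WT and at 53.1, 47.9 and 44.6 FPKM in Hemgn-/- HSPCs, with overlap (log2 fold change 0.21, 95% interval -0.03 to 0.44). Trim35 was at 24.8, 22.9 and 30.8 FPKM in WT and at 30.9, 29.6 and 31.7 FPKM in Hemgn-/- HSPCs, also with overlap (0.24, 95% interval -0.02 to 0.49). Trim59, anchored in membranes, was at 17.2, 15.97 and 18.3 FPKM in WT and at 16.6, 13.5 and 19.2 FPKM in Hemgn-/- HSPCs. Its log2 fold change was -0.07 (95% interval -0.37 to 0.23), and the Hemgn-/- values lay on both sides of those of WT. Trim8, a modifier of cytokine signalling, was at 14.9, 13.9 and 12.4 FPKM in WT and at 17.8, 17.6 and 16.8 FPKM in Hemgn-/- HSPCs. Its groups did not overlap, and its log2 fold change of 0.32 (95% interval 0.10 to 0.54) had an adjusted p of 0.0943, which became 0.0407 with each library rescaled to the same FPKM total. Trim16 was at 6.96, 7.18 and 7.47 FPKM in WT and at 5.25, 6.09 and 5.81 FPKM in Hemgn-/- HSPCs, lower in every library but with an adjusted p of 0.162 (log2 fold change -0.29).

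Of the members bound to chromatin, Trim28 (KAP1), the co-repressor of KRAB zinc finger proteins, was at 3.87, 6.24 and 4.70 FPKM in WT and at 4.42, 3.73 and 2.71 FPKM in Hemgn-/- HSPCs (adjusted p = 0.328, log2 fold change -0.36 with a 95% interval of -0.80 to 0.08). Trim33 (TIF1-gamma), a partner of SMAD proteins needed in blood formation, was at 5.71, 5.55 and 5.09 FPKM in WT and at 6.92, 4.36 and 5.58 FPKM in Hemgn-/- HSPCs (0.02, 95% interval -0.33 to 0.37, adjusted p = 0.957). Both sets of values overlapped. Trim24 stayed below 1 FPKM in every library and Trim66 was at 0 in all but 1, so neither was tested. None of the 12 partners of Trim28 and Trim33 tested, among them Setdb1, the Cbx genes and the Smad genes, was called.

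Trim10 and Trim58 are erythroid members, Trim10 needed for terminal red cell maturation and Trim58 active in late erythroblasts. Trim10 was at 0.19, 1.78 and 0.79 FPKM in WT and at 0.28, 0.39 and 0 FPKM in Hemgn-/- HSPCs, from at most 102 fragments (log2 fold change -0.58, 95% interval -1.35 to 0.20, adjusted p = 0.379). Trim58 was at 1.58, 0.62 and 0.97 FPKM in WT and at 0.96, 0.94 and 0.52 FPKM in Hemgn-/- HSPCs (adjusted p = 0.726, log2 fold change -0.17 with a 95% interval of -0.72 to 0.38). Both were low, their groups overlapped, and neither passed the test, nor did Trim10 with voom on recovered fragments, where its log2 fold change was -2.86 (adjusted p = 0.217). The summed level of the erythroid markers with values was 489 to 573 FPKM in WT and 64.5 to 83.4 FPKM in Hemgn-/- libraries.

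Trim27, a ligase of the PML bodies and of endosomal sorting named here after its values were seen, was the only other member past the thresholds of the study. It was at 3.81, 11.1 and 4.03 FPKM in WT and at 3.21, 2.54 and 2.83 FPKM in Hemgn-/- HSPCs, and WT replicate 2 stood far above the other two. Its log2 fold change was -0.78 (adjusted p = 0.200), and it was -0.35 (adjusted p = 0.246) without that library. Of the remaining members, the NHL-repeat genes had 2 tested (Trim3 and Trim32), those without a RING finger 3 and those with a COS box 1 (Trim36), and none was called. Of the muscle members Trim55, Trim63 and Trim72, none reached 0.1 FPKM in any library. In all, 19 members with values stayed below the filter, and the highest value among them was 0.96 FPKM.

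Of 4 genes that belong to the family by structure but not by symbol, 2 were tested. Pml, the scaffold of nuclear bodies and itself interferon-inducible, rose from 33.4, 29.4 and 24.4 FPKM in WT to 41.8, 37.6 and 42.6 FPKM in Hemgn-/- HSPCs (adjusted p = 0.0485, log2 fold change 0.48), a call lost in 10 of 16 alternatives. Mefv, which encodes the inflammasome sensor pyrin, was at 8.59, 8.03 and 5.58 FPKM in WT and at 11.6, 11.5 and 10.9 FPKM in Hemgn-/- HSPCs (adjusted p = 0.0585, log2 fold change 0.57). In both genes the genotypes did not overlap. Mid1 and Mid2 stayed below 1 FPKM in every library.

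Genes that work with the interferon-inducible members were followed by lists of their roles. Of 12 genes of RNA and DNA sensing, 2 rose (4.37% of all genes tested), 1 fell (2.09% of all genes) and 9 did not pass the test. Ddx58, which encodes RIG-I, the target of Trim25, rose from 31.9, 28.5 and 28.8 FPKM to 40.7, 39.9 and 43.6 FPKM (adjusted p = 0.0133, log2 fold change 0.47). Irf3, the factor activated by these sensors, rose from 15.7, 15.2 and 14.1 FPKM to 22.0, 19.7 and 21.4 FPKM (0.46, adjusted p = 0.0210). Cgas, the DNA sensor, fell from 2.38, 2.92 and 2.50 FPKM to 1.07, 1.11 and 1.52 FPKM, by 0.69 on the log2 scale (adjusted p = 0.0415). The call of Cgas was lost when any 1 library was left out (adjusted p from 0.0703 to 0.117), and with voom on recovered fragments its log2 fold change was -1.08 (adjusted p = 0.0227). Those of Ddx58 and Irf3 were lost without WT replicate 3 or Hemgn-/- replicate 3, and that of Irf3 also without WT replicate 1 or Hemgn-/- replicate 1, with adjusted p up to 0.0708 and 0.0907. Both were also lost with eBayes without a trend, and that of Irf3 with median-ratio scaling and quantile normalization. In all, Ddx58 lost its call in 3 and Irf3 in 8 of 16 alternatives.

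Trim25 is also modified by ISG15, a ubiquitin-like protein. Of 5 genes of ISG15 conjugation, 1 rose and 1 fell, beside the same 4.37% and 2.09% of all genes. Usp18, which removes ISG15, rose from 15.5, 11.5 and 14.01 FPKM to 23.3, 20.7 and 23.7 FPKM (adjusted p = 0.0123, log2 fold change 0.69). Ube2l6, the E2 enzyme that passes it on, fell from 31.8, 31.0 and 35.5 FPKM to 21.6, 20.997 and 19.9 FPKM, by 0.63 on the log2 scale (adjusted p = 0.00468). The call of Ube2l6 was kept under every alternative run. That of Usp18 was lost without Hemgn-/- replicate 3 (adjusted p = 0.0633) and with eBayes without a trend. The other 3 genes were not called. The 5 ubiquitin E2 enzymes tested, which load TRIM ligases, were not called. Of 11 genes of interferon signalling, 3 rose, against 4.37% of all genes tested, and 0 fell, against 2.09%. Irf1, which binds the ISRE, rose from 52.1, 52.0 and 42.6 FPKM to 76.9, 82.7 and 88.3 FPKM (adjusted p = 0.00384, log2 fold change 0.75) and kept this call under every alternative run. The receptor chains Ifngr2 (0.45, adjusted p = 0.0158) and Ifnar1 (0.45, adjusted p = 0.0331) rose less, and their calls were lost in 4 and 10 of 16 alternatives.

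Hemgn itself, the disrupted gene, measured 5.64, 2.96 and 4.68 FPKM in WT against 0.75, 0.91 and 1.60 FPKM in Hemgn-/- HSPCs, and it fell by 1.37 on the log2 scale (adjusted p = 0.0114, and 0.0503 without WT replicate 3). The totals by which the libraries had been scaled, recovered from the steps of low FPKM values, were 23668004 to 28897305 fragments. Markers of other blood cells were present throughout. Summed levels of 11 HSPC markers were 44.6 to 49.0 FPKM in WT and 54.3 to 63.6 FPKM in Hemgn-/- libraries. Log2 fold changes were positive in 7 of the 11, close to the share over all genes tested (8653 of 13739). Of the 11, 2 (Cd34 and Cd48) rose, against 4.37% of all genes tested, while 0 fell, against 2.09%. Kit was at 6.14 to 7.24 FPKM in WT and lower, at 5.50 to 5.90 FPKM, in Hemgn-/- libraries, without being called (adjusted p = 0.398). Ly6a (Sca-1) was at 8.27 to 10.2 FPKM in WT and at 11.4 to 17.3 FPKM in Hemgn-/- libraries (adjusted p = 0.0642). The 10 neutrophil markers summed to 74810 to 80740 FPKM in WT and 48980 to 54190 FPKM in Hemgn-/- libraries. Of the 10, 5 fell, against 2.09% of all genes tested, and the other 5, among them Mmp8 (log2 fold change 0.01), were not called. Ngp made the largest part of the sum, with means of 44876 FPKM in WT and 27132 FPKM in Hemgn-/- libraries. In every library the neutrophil sum was thus far above the HSPC sum. The 6 plasmacytoid dendritic cell markers had sums of 240 to 278 FPKM in WT and 367 to 433 FPKM in Hemgn-/- libraries, and 3 rose and 0 fell. B cell markers (7 genes) summed to 1160 to 1221 and 1380 to 1554 FPKM, and 3 rose and 0 fell. The T and NK cell markers (7 genes) summed to 104 to 114 and 122 to 143 FPKM, and 2 rose and 0 fell. The eosinophil and basophil markers (5) summed to 406 to 497 and 234 to 243 FPKM. Of these, Epx, Prg2 and Prg3 fell, while Mcpt8 (log2 fold change -0.10) and Cpa3 (0.27) were not called. The macrophage and monocyte markers (8) summed to 426 to 490 and 360 to 448 FPKM, and 2 rose and 1 fell. The endothelial markers (5) summed to 12.5 to 14.9 and 15.97 to 19.4 FPKM, and none was called. All of these counts stand beside 4.37% higher and 2.09% lower over all genes tested. No listed marker with values was at 0 in all libraries, and Slc4a1, Mertk and Cdh5 stayed below 1 FPKM. The macrophage and monocyte sums overlapped between the genotypes, and the other sums did not, although single markers within a list could differ in direction. Most marker sums thus differed with the genotype, as the TRIM genes did, and their part in the TRIM differences was not tested.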

How the data were processed

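Donor HSPCs from 3 WT and 3 Hemgn-/- replicates were sequenced as paired reads of 150 bases. The authors deposited 1 table of FPKM values by Ensembl identifier, with 1 column per library and no replicates pooled. The submitters' processing notes name HISAT2 2.1.0, Bowtie2 2.2.3, TopHat2, HTSeq 0.6.0 and GRCm38, without roles. Columns were matched to samples by genotype and number in their names, and none was left unmapped (0). The methods call the libraries biological replicates, and the labels do not say which mice they came from, so p-values measure the spread between these libraries.

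Of 24965 genes, 24921 matched GENCODE M21. Genes that exceeded 1 FPKM in 1 library or more were compared as log2(FPKM + 1) with limma 3.58.1 in R 4.3.3 (eBayes with a trend, all 6 libraries, no covariate), two-sided, adjusted over all tested genes by Benjamini-Hochberg. This scale understates the change of low genes. Low values of the deposited FPKM rose in steps of whole fragments (95.7% of 13484 genes with at most 100 fragments, within 0.05 of a whole number in all 6 libraries), which gave the depth, and 55 of 57 members came out whole. One fragment on 1 kb was worth 0.0346 to 0.0423 FPKM. Replicates differed beyond sampling noise. The fit was tested on simulated data.

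The members and all gene lists were chosen with earlier results of these data known. Named genes were every interferon-inducible member tested, Trim10, Trim58, Trim24, Trim28, Trim33, Trim66, the 5 most abundant other members, Pml, Mid1, Mid2, Mefv, listed partners with an adjusted p under 0.05 and Hemgn. Marker lists were summed per library. Alternatives were a pseudocount of 0.1, 2 other filters, 3 scalings, eBayes without a trend, voom on recovered fragments, the replicate number as a block, summed copies and leaving out each library. Python 3.11.15 with pandas 2.3.3 was used for the rest.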

Additional observations from a re-analysis of the deposited data

How the results depend on the processing

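The count of TRIM members that rose, 8 and all of them interferon-inducible, was 5 with all genes above 0 tested, 5 with eBayes without a trend and 5 to 7 with each library left out. With the copies summed it was 5, namely Trim5, Trim26 and the sums of the Trim12, Trim30 and Trim34 genes, which stand in place of 8 genes. The single call of a fall was 2 with a pseudocount of 0.1, with libraries rescaled to the same FPKM total, with voom on recovered fragments and without WT replicate 2 (Trim21 joined Trim34b), and 0 with the copies summed, over a range of 1 to 2 with each library left out. The same counts hold for the interferon-inducible members. At the thresholds of the study, 7 higher members became 4 with the copies summed and 3 lower members became 6 with voom. Among the other members, 0 higher became 1 (Trim8) with libraries rescaled to the same total. No named gene that was called reversed its direction. The same-numbered libraries did not deviate together (correlations of -0.04, -0.01 and 0.01). The values thus gave no sign of pairing by number, but they cannot settle how the libraries were prepared. With the replicate number as a block 7 members rose and 1 fell, Trim26, Pml, Irf3, Ifnar1 and Cgas losing their calls (adjusted p of 0.0844, 0.0669, 0.0506, 0.0549 and 0.0907). No other named gene changed its call under the block. The causes of these changes were not tested. Few fragments limit the precision of low members, such as Trim10 with at most 102 and Trim58 with at most 82 in any library.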
